A study of Mus musculus with 8 samples.

Results

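Mitosis and kinetochore genes encode the machinery that takes a cell from the end of DNA replication through chromosome segregation to the splitting of the cytoplasm. The 54 genes described here were taken from a list of symbols of G2/M, spindle, kinetochore and cytokinesis genes. All 54 were found among the 53647 genes counted in each library, and all 54 passed the filter on low counts that left 15603 genes for testing. Genes were listed by function and not by a threshold on their levels, but earlier results of these data were known when the list was drawn up.

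The cells were wild-type mouse primary myotubes, fibres with many nuclei that arise when myoblasts, the precursor cells of muscle, stop dividing and fuse. The myoblasts came from the limbs of pups aged 2 to 3 days and were differentiated in 5% horse serum, so a culture can keep myoblasts that did not fuse and other cells of the limb. Cultures received interleukin 6 (IL6), leukaemia inhibitory factor (LIF) or oncostatin M (OSM), all cytokines of the gp130 receptor family, each at 250 ng/ml for 48 h, or were labelled control. Cells were harvested 72 h after differentiation, and poly(A) RNA was sequenced in 8 libraries, 2 for each of the 4 groups. The labels do not say what the controls received, nor whether the 2 libraries of a group came from separate animals or dishes, so p-values measure only the spread between these libraries.

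In dividing cells many of these genes are transcribed together late in the cycle. The DREAM complex represses many of them in resting cells, and MYBL2 with the MuvB core, and then FOXM1, activates them as cells approach mitosis. Both act at the cell cycle genes homology region (CHR), a short promoter element often found a little downstream of CCAAT boxes, which bind NF-Y. Myotube nuclei have left the cell cycle, and in muscle cultures these transcripts are usually taken as a sign of cells that still divide.

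Nearly the whole list was lower with OSM. Of the 54 genes, 53 were called lower than control (edgeR quasi-likelihood test, adjusted p under 0.05 over all genes tested) and 0 higher, where 10.6% of all genes tested were called lower, 10.8% higher and 21.4% either way. The median log2 change was -1.81, a level 3.50-fold lower, and single genes ran from -2.16 to 0.21. At least a 2-fold fall was seen in 50 genes and at least a 4-fold fall in 11, beside 576 and 113 of all 15603 genes. The exception was Pttg1, the anaphase inhibitor securin. With LIF 48 of 54 were called lower and 0 higher, beside 3.46% of all genes lower, 4.20% higher and 7.66% either way, and the median log2 change was smaller, at -0.54 (1.46-fold lower). With IL6 0 of 54 passed the test, as did 0.00% of all genes in either direction. The median log2 change of all genes tested lay within 0.01 of 0 in each of these comparisons.

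**Figure D1:**
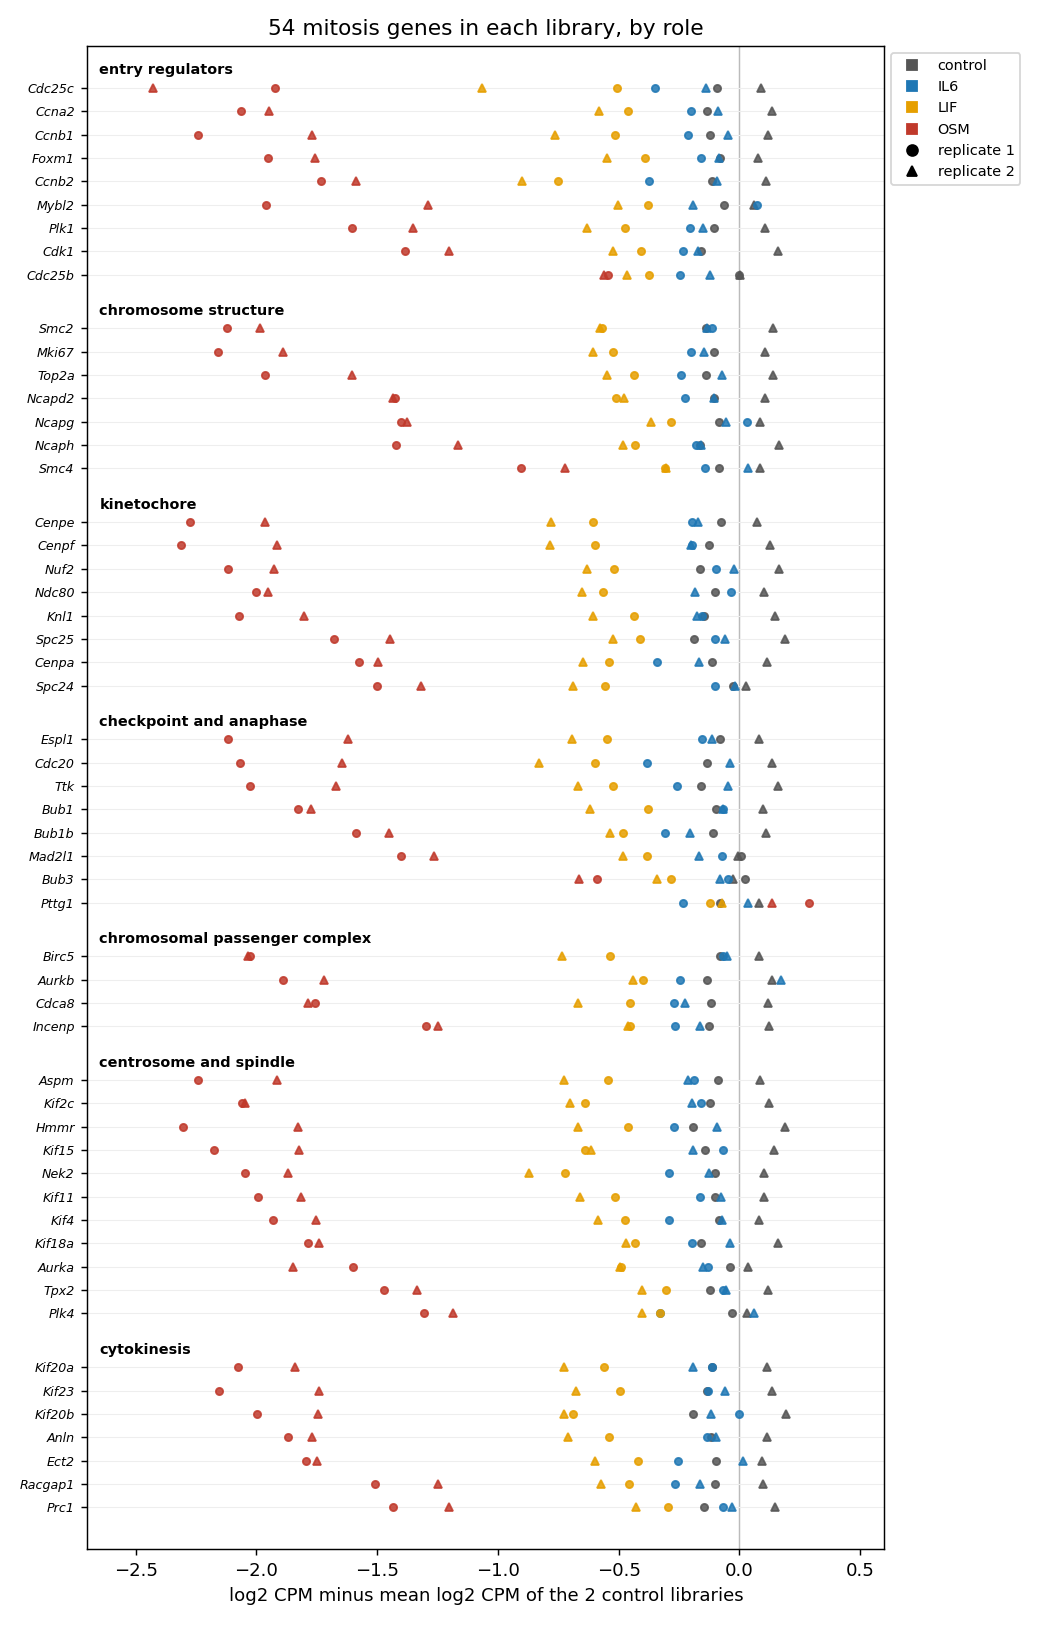
Level of each of the 54 genes in each of the 8 libraries, as log2 CPM minus the mean log2 CPM of the 2 control libraries (horizontal axis), with genes grouped by role; circles are replicate 1 and triangles replicate 2. In 53 genes both OSM libraries (red) lie to the left of both LIF libraries (orange), which lie to the left of both control libraries (grey); the exception is Pttg1.

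RefSeq promoter sequences (build GRCm38.p6, from 250 bases before to 50 after the annotated start) were matched for 45 of the 54 genes. Foxm1, Ccna2, Cdc25c, Smc4, Spc24, Aurkb, Incenp, Tpx2 and Kif20a were not matched. The letters TTTGAA or TTCGAA, searched on both strands as a stand-in for the CHR, occurred for 34 of the 45 genes (75.6%) against 21.7% of 27025 genes in the table. CCAAT on either strand occurred in 31 (68.9%) against 41.1%, and both motifs in 28 (62.2%) against 9.65%. Where a gene had more than 1 promoter entry, a motif in any entry counted, so both motifs need not lie in 1 window. Of 32851 single entries, 7.525% held both. These shares are over every gene or entry of the promoter table, not over the 15603 genes tested here. Matches of the 2 motifs may share a base where they abut. A match says only that these letters are in the window. The following 30-base stretches, 1 gene for each of 6 roles described below, show the match in its surroundings. They are written 5′ to 3′ on the gene's own strand, with the matched letters in capitals (TTCAAA is TTTGAA on the other strand).
Ccnb2, chr9:70421533-70421562, minus strand: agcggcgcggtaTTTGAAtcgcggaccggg
Smc2, chr4:52439235-52439264, plus strand: ctcgcgccgaaaTTCAAAggaacagttccg
Cenpf, chr1:189688067-189688096, minus strand: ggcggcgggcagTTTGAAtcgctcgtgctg
Espl1, chr15:102296254-102296283, plus strand: tcactagggataTTTGAAaggaggtgctgg
Aspm, chr1:139454767-139454796, plus strand: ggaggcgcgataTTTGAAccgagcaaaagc
Kif23, chr9:61946780-61946809, minus strand: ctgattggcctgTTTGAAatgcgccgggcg

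The match shown lay in the first 50 transcribed bases in 5 of these 6 genes and upstream of the start in Espl1. Each gene had the largest fall with OSM among the genes of its role with a match. The match nearest the start was shown, so its place is partly set by this choice. Smc2 and Ccnb2 also hold a match upstream of the start. Longer sequences are given for 4 genes: Mki67, the proliferation marker Ki-67, and Cdk1, whose promoters hold each motif more than 1 time; Cdc20, whose match lies close to a CCAAT box; and Pttg1, which moved apart from the rest. Each is the 200 bases directly upstream of the start, on the gene's strand. Capitals mark CHR matches and CCAAT boxes on either strand.
Mki67, chr7:135716380-135716579, minus strand: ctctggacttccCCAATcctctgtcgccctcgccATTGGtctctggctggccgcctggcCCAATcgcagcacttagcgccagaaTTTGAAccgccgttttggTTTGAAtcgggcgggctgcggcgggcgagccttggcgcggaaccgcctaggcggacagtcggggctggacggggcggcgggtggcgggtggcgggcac
Cdk1, chr10:69352913-69353112, minus strand: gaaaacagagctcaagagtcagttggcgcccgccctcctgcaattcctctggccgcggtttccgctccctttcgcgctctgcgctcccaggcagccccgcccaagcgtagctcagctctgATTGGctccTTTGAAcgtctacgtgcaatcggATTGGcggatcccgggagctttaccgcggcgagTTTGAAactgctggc
Cdc20, chr4:118437344-118437543, minus strand: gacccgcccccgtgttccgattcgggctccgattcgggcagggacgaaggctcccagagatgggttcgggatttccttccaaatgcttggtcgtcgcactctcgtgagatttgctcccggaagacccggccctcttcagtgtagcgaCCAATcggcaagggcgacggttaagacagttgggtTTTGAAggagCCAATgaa
Pttg1, chr11:43425982-43426181, minus strand: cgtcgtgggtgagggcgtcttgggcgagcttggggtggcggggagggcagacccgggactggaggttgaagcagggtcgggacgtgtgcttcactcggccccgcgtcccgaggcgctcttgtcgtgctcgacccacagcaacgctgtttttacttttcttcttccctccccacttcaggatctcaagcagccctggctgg

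Mki67, Cdc20 and Cdk1 fell with OSM and hold both motifs. In the 200 bases shown for Pttg1, and in its whole window of 300 bases, neither motif was found. The same was true of the windows of Birc5, Nuf2, Kif18a, Mybl2, Mad2l1, Ncaph and Plk4. All of these were called lower with OSM, with log2 changes from -2.03 (Birc5) to -1.25 (Plk4). The presence of the letters did not sort the falls by size. The 34 genes with a CHR match had a median log2 change of -1.81 with OSM, from -2.10 to -0.55. The 11 without had a median of -1.77, from -2.11 to 0.21, and Birc5, Ccnb1 and Cenpe were among these 11. Only TTTGAA and TTCGAA were searched for the CHR, so a gene without a match is not shown to lack the element. No test was made of the motifs.

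The libraries were of even depth. Gene totals ran from 29482077 to 30025471 counts, 11.7% to 12.7% of recorded alignments were not assigned to 1 gene, and a member held between 38 and 10525 counts in a library. Counts differed between the replicates of each group by more than counting error (mean chi-square per gene 2.97 to 11.96). Within groups the genes on the list moved together. Control replicate 2 was above control replicate 1 in 52 of 54 genes, with a median difference of 0.22 on the log2 scale, while the median over all genes tested was under 0.01. OSM replicate 2 was above replicate 1 in 46 genes (median 0.18), IL6 replicate 2 in 39 (0.06) and LIF replicate 2 in 4 (-0.12). The difference between the control replicates was larger than the median IL6 change given below. Per kilobase of exon (GENCODE M21), the highest control levels were those of Top2a (35.8 CPM per kilobase), Smc4 (29.7) and Mki67 (27.9). The lowest were those of Kif18a (0.907), Cdc25c (1.40) and Mybl2 (1.90), and the median was 8.15.

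The regulators of mitotic entry fell together with OSM: 9 of 9 were called lower, with a median log2 change of -1.66. Foxm1, the transcription factor that drives the late cell cycle programme, stood at 32.7 and 36.5 CPM (read counts scaled to the TMM-adjusted size of each library) in the control libraries, 31.0 and 32.6 with IL6, 26.4 and 23.6 with LIF, and 8.93 and 10.2 with OSM. The OSM and LIF libraries overlapped neither each other nor the controls, and both IL6 libraries lay just under the lower control. Its log2 change was -1.85 with OSM (SE 0.103, edgeR adjusted p = 4.35e-08) and -0.47 with LIF (SE 0.0936, adjusted p = 0.00773). Ccnb1, cyclin B1, the partner of Cdk1 at mitotic entry, was at 31.5 and 37.1 CPM in controls, 29.5 and 33.1 with IL6, 23.9 and 20.2 with LIF, and 7.22 and 10.03 with OSM. It fell by 1.99 with OSM (SE 0.149, edgeR adjusted p = 1.88e-06) and by 0.64 with LIF (SE 0.135, adjusted p = 0.0138) on the log2 scale. Of the 50-base stretches of its transcript, 42.1% also occur in transcripts of other genes, pseudogenes among them, so its counts depend on how shared reads were assigned.

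Cdk1, the kinase of mitotic entry, was measured at 61.6 and 76.7 CPM in controls, 58.5 and 61.0 with IL6, 51.8 and 47.7 with LIF, and 26.3 and 29.9 with OSM. Its fall with OSM was shallower than that of its cyclins (log2 change -1.30, SE 0.102, edgeR adjusted p = 1.42e-06). These changed by -1.66 (Ccnb2), -1.99 (Ccnb1) and -2.01 (Ccna2), and the difference between genes was not tested. The widest contrast within this role was between the CDC25 phosphatases, which activate Cdk1. Cdc25c, a gene with few counts that overlaps another on the opposite strand, was at 6.45 and 7.32 CPM in controls, 5.39 and 6.24 with IL6, 4.84 and 3.28 with LIF, and 1.81 and 1.28 with OSM, and its change of -2.16 (SE 0.229, edgeR adjusted p = 1.54e-05; 4.46-fold lower) was the lowest value on the list. Cdc25b was at 64.3 and 64.3 CPM in controls, 54.2 and 59.1 with IL6, 49.6 and 46.6 with LIF, and 44.1 and 43.6 with OSM. Cdc25b had the smallest fall among the 53 called (-0.55, SE 0.0693, edgeR adjusted p = 7.02e-05; 1.47-fold lower), and the difference between its OSM and LIF levels did not pass the test (log2 -0.13, SE 0.0699, adjusted p = 0.316). Mybl2 was called with OSM (-1.58) but not with LIF (-0.44, SE 0.172, edgeR adjusted p = 0.161).

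Genes of chromosome structure were also all called lower with OSM, 7 of 7, with a median log2 change of -1.43. Mki67, which coats mitotic chromosomes, stood at 260.2 and 301 CPM in controls, 244 and 252 with IL6, 195 and 184 with LIF, and 62.6 and 75.6 with OSM. Each OSM library was under each LIF library and each LIF library under each control, and the falls were 4.06-fold with OSM (log2 change -2.02, SE 0.0925, edgeR adjusted p = 2.10e-08) and 1.48-fold with LIF (-0.57, SE 0.088, adjusted p = 0.0021). The condensin subunits, which compact chromosomes, differed among themselves. Smc2 was at 81.8 and 99.0 CPM in controls, 83.2 and 81.9 with IL6, 60.6 and 60.3 with LIF, and 20.7 and 22.8 with OSM, a log2 change of -2.06 with OSM (SE 0.091, edgeR adjusted p = 1.17e-08). Its partner Smc4 was at 146 and 164 CPM in controls, 139.8 and 158 with IL6, 125 and 125 with LIF, and 82.5 and 93.8 with OSM, a change of -0.81 (SE 0.0826, edgeR adjusted p = 1.2e-05). Smc2 and Smc4 form 1 dimer, and on this scale they marked the largest and smallest falls of the role.

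Kinetochore genes had the largest median fall of the 7 roles with OSM (-1.96) and with LIF (-0.60), and 8 of 8 were called with each. No test compared the roles. Cenpe, the kinetochore motor that moves chromosomes to the spindle equator, was at 49.8 and 55.2 CPM in controls, 45.8 and 46.6 with IL6, 34.4 and 30.5 with LIF, and 10.8 and 13.4 with OSM. In this gene the IL6 libraries also lay under both controls, and the OSM change was -2.11 (SE 0.104, edgeR adjusted p = 2.08e-08). The 4 subunits of the NDC80 complex, which binds microtubule ends, changed unevenly with OSM: Nuf2 by -2.03, Ndc80 by -1.98, Spc25 by -1.57 and Spc24 by -1.41. Spc24, the smallest fall of this role, was at 15.2 and 15.8 CPM in controls, 14.5 and 15.3 with IL6, 10.5 and 9.61 with LIF, and 5.47 and 6.21 with OSM (SE 0.117, edgeR adjusted p = 1.54e-06). Cenpa, the histone H3 variant of centromeres, changed by -1.54.

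Among the genes of the spindle checkpoint and of anaphase, 7 of 8 were called lower with OSM, with a median of -1.66 over the 8. Espl1, separase, the protease that cuts cohesin, was at 25.1 and 28.1 CPM in controls, 23.9 and 24.6 with IL6, 18.2 and 16.4 with LIF, and 6.12 and 8.62 with OSM (log2 change -1.85, SE 0.135, edgeR adjusted p = 6.04e-07). Cdc20, the activator of the anaphase-promoting complex, changed by the same amount, -1.85, and Ttk, a checkpoint kinase, by -1.84. The checkpoint protein gene Bub3 changed least among those called here, from 67.0 and 64.7 CPM in controls to 43.8 and 41.6 with OSM (-0.63, SE 0.0658, edgeR adjusted p = 1.41e-05).

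Pttg1, whose product holds separase inactive, was the only gene on the list not lower with OSM. It was at 17.7 and 19.8 CPM in controls, 16.0 and 19.3 with IL6, 17.3 and 17.9 with LIF, and 22.9 and 20.6 with OSM. Both OSM libraries lay above the other 6, but the difference from control did not pass the test (log2 0.21, SE 0.108, edgeR adjusted p = 0.197), nor did those from LIF (0.31, SE 0.109, adjusted p = 0.11) and IL6 (0.30, SE 0.109, adjusted p = 0.0786). The differences from LIF and from IL6 passed it under some of the alternative settings given in the closing section, and the difference from control under none of them. In the same libraries Espl1, the target of securin, fell by 1.85 on the log2 scale.

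The chromosomal passenger complex, which corrects faulty kinetochore attachments, had 4 of 4 subunit genes called lower with OSM (median -1.79). Birc5, survivin, was at 38.7 and 43.3 CPM in controls, 39.0 and 39.5 with IL6, 28.2 and 24.6 with LIF, and 10.1 and 9.9996 with OSM (log2 change -2.03, SE 0.0961, edgeR adjusted p = 1.43e-08). Aurkb, the kinase of the complex, was at 33.8 and 40.7 CPM in controls, 31.3 and 41.7 with IL6, 28.1 and 27.3 with LIF, and 9.99 and 11.2 with OSM (-1.81, SE 0.143, edgeR adjusted p = 3.56e-06). The IL6 libraries of Aurkb spanned the controls, and its LIF change did not pass the test (-0.43, SE 0.131, edgeR adjusted p = 0.0757), although both LIF libraries lay under both controls. Incenp, the scaffold, fell least, from 40.2 and 47.8 CPM in controls, 36.5 and 39.2 with IL6 and 32.1 and 31.9 with LIF to 17.8 and 18.5 with OSM (-1.28, SE 0.0916, edgeR adjusted p = 4.26e-07).

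Centrosome and spindle genes were called lower with OSM in 11 of 11 cases (median -1.91) and with LIF in 8. Aspm, which organises spindle poles, was at 35.5 and 40.1 CPM in controls, 33.1 and 32.5 with IL6, 25.9 and 22.8 with LIF, and 7.97 and 9.9996 with OSM (log2 change -2.07, SE 0.114, edgeR adjusted p = 4.35e-08). Plk4, the kinase of centriole duplication, fell least, and was at 33.9 and 35.5 CPM in controls, 27.7 and 36.2 with IL6, 27.6 and 26.3 with LIF, and 14.0 and 15.2 with OSM (-1.25, SE 0.115, edgeR adjusted p = 5.02e-06). The 5 kinesin motors of this role lay between these, from -2.06 (Kif2c) to -1.77 (Kif18a). Plk4, Hmmr and Kif18a were the ones not called with LIF, with log2 changes of -0.37, -0.57 and -0.46 and edgeR adjusted p of 0.0629, 0.0505 and 0.0708.

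Cytokinesis genes completed the pattern, with 7 of 7 called lower with OSM (median -1.82) and with LIF (median -0.59). Kif20a, a motor of the central spindle, was at 39.3 and 46.0 CPM in controls, 39.3 and 37.2 with IL6, 28.8 and 25.7 with LIF, and 10.1 and 11.9 with OSM (log2 change -1.96, SE 0.108, edgeR adjusted p = 4.35e-08). Its exons overlap Cdc23 on the opposite strand over 29.3% of their length, so its level is uncertain. Of its 50-base stretches, searched on both strands, 31.2% occur in transcripts of this same gene, so the 2 figures are not separate limits. Prc1, which bundles the antiparallel microtubules of the midzone, was at 75.6 and 92.6 CPM in controls, 79.8 and 82.0 with IL6, 68.2 and 62.2 with LIF, and 31.0 and 36.4 with OSM (-1.32, SE 0.102, edgeR adjusted p = 1.65e-06). Kif20a and Prc1 were the largest and smallest falls of this role. Over the whole list, 8 genes shared more than 10% of their 50-base stretches with other genes, namely Ccnb1, Kif20a, Mybl2, Cdc25c, Kif4, Ccna2, Cdc20 and Plk1. For all of these but Ccnb1 and Mybl2, the sharing genes included one that overlaps on the opposite strand. Exons overlapped a gene on the opposite strand over more than 10% of their length in 6 genes, which besides Kif20a were Kif4 (15.1%), Ncapg (13.4%), Cdc25c (12.7%), Ccna2 (12.49%) and Prc1 (11.1%).

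**Figure D2:**
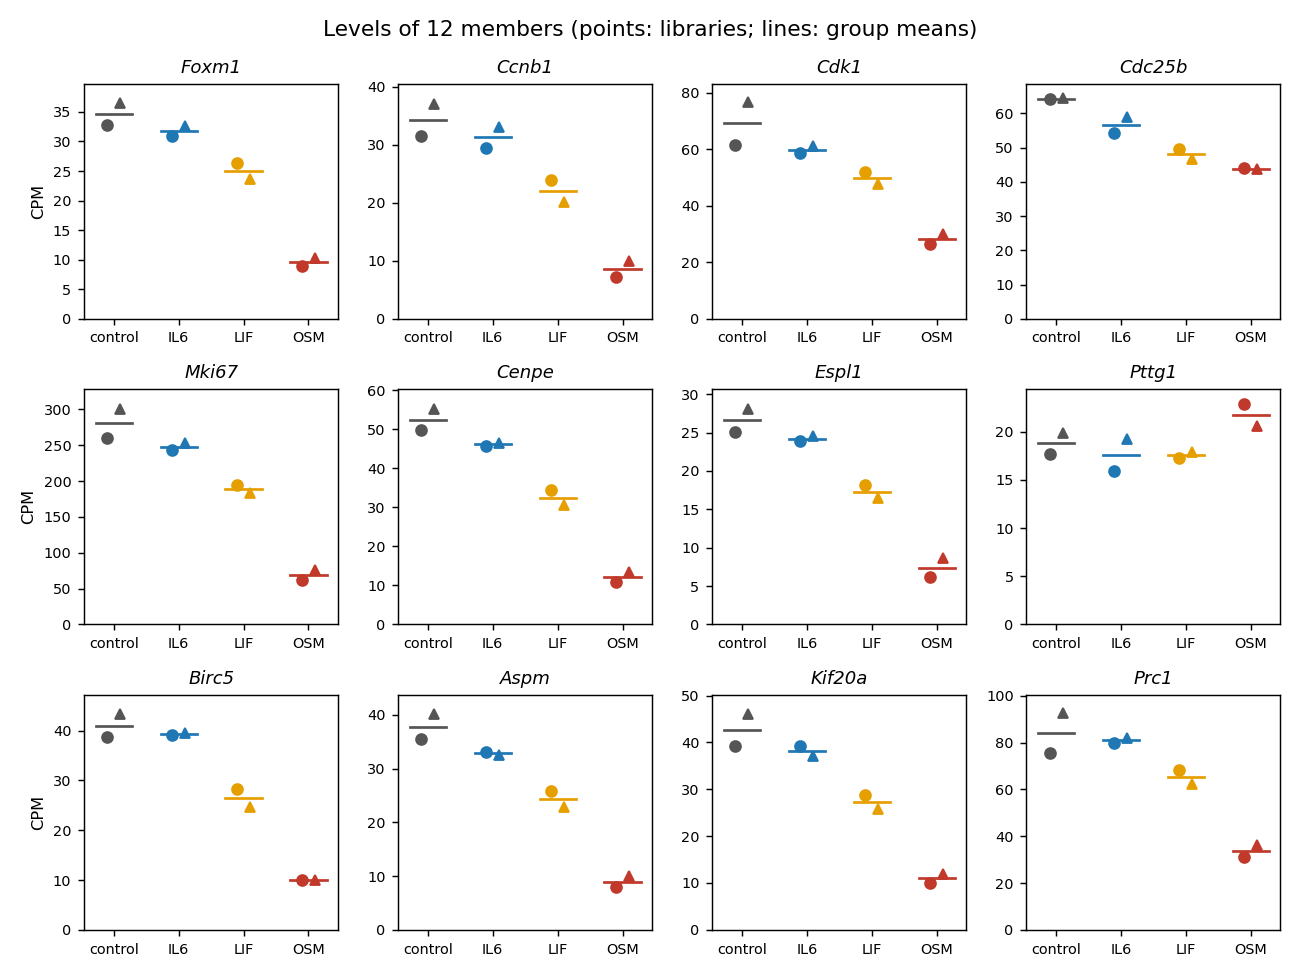
Level in CPM (vertical axes, from 0) of 12 of the genes in the control, IL6, LIF and OSM groups; points are libraries (circles replicate 1, triangles replicate 2) and lines are means of 2. In 11 panels the OSM points are the lowest and the LIF points lie between OSM and control, with the narrowest gap in Cdc25b; in the Pttg1 panel the OSM points are the highest.

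Group means followed the order control, IL6, LIF, OSM from high to low in 53 of 54 genes. The share of all genes in this order was not counted. Genes on the list moved together within groups, so these are not 53 separate observations. The median IL6 change (-0.14) was smaller than the median difference between the control replicates (0.22). Each step was read with its own test. LIF was under control without overlap of libraries in 53 genes, where 26.8% of all genes tested lay lower and 25.2% higher in this way; for OSM against control the count was also 53, where the shares were 31.0% lower and 29.9% higher. Calls over all genes were not counted in fits that left out a library, so a lower count there may not be particular to these genes. The LIF call count leaned on single libraries. It was 10 of 54 without LIF replicate 2 and 29 without control replicate 2, while the median log2 change stayed between -0.66 and -0.43 over all 8 omissions. The largest LIF changes were in Ccnb2, cyclin B2 (-0.83, SE 0.137, edgeR adjusted p = 0.00251), and Nek2, a centrosome kinase (-0.80, SE 0.118, adjusted p = 0.00119). The 6 genes not called with LIF were Mybl2, Pttg1, Aurkb, Plk4, Hmmr and Kif18a.

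OSM was compared with LIF directly. The 2 cytokines were given at the same mass concentration and for the same time. Lower levels with OSM were called in 52 of 54 genes and higher levels in 0, where 4.04% of all genes tested were called lower, 4.01% higher and 8.04% either way. The median log2 difference was -1.23 (2.34-fold lower), and 38 genes were at least 2-fold lower, beside 319 of all 15603 genes. Libraries of the groups did not overlap in 53 genes with OSM lower and in Pttg1 with OSM higher, beside 28.6% and 28.1% of all genes. Mki67 differed by -1.45 (SE 0.0916, edgeR adjusted p = 3.18e-06), Birc5 by -1.40 (SE 0.0977, adjusted p = 3.64e-06) and Cdk1 by -0.82 (SE 0.103, adjusted p = 0.00025). Cdc25b and Pttg1 were the 2 not called.

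No gene on the list passed the test with IL6. Fitted changes were negative in 54 of 54 genes but small, from -0.26 to -0.01 with a median of -0.14, and 0 were called by edgeR. At an unadjusted p under 0.05 there were 7, beside 795 of all 15603 genes. DESeq2 called 0 of the 54, beside 17 of the 10339 genes to which it gave an adjusted p. Both IL6 libraries lay under both controls in 23 genes, where 14.1% of all genes lay lower and 14.0% higher in this way. The IL6 mean was above control replicate 1 in 18 genes, and without control replicate 2 the fitted change turned positive in 18 genes and the median became -0.02. Mki67 changed by -0.18 (SE 0.0875, edgeR adjusted p = 0.943) and Birc5 by -0.06 (SE 0.0855, adjusted p = 0.959).

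Against IL6, OSM gave values close to those against control: 53 genes were called lower and 0 higher (7.52% and 8.02% of all genes, 15.5% either way), with a median log2 difference of -1.66. Libraries did not overlap in 53 genes with OSM lower and in Pttg1 with OSM higher (27.6% and 26.7% of all genes). LIF against IL6 gave a median of -0.39, and 19 genes were called lower and 0 higher, where 1.02% of all genes were called lower, 1.76% higher and 2.78% either way. The libraries of these 2 groups did not overlap in 53 genes, LIF being lower, beside 22.3% of all genes lower and 21.3% higher. Birc5 had the smallest adjusted p (log2 difference -0.57, SE 0.0876, edgeR adjusted p = 0.00398). This count also leaned on single libraries, since without LIF replicate 2 it was 0 and without control replicate 1 it was 29. In these fits too, calls over all genes were not counted. Comparisons that share a group share its libraries and are not independent of each other.

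Related lists, also written with earlier results known, were read in the same fit. Of 59 other mitotic genes, 58 were called lower with OSM and 0 higher (median log2 change -1.59), and 33 lower with LIF (median -0.50). For these counts and those of replication genes below, the shares of all genes tested were 10.6% lower and 10.8% higher with OSM. With LIF 3.46% of all genes were called lower. Shcbp1, a midbody protein gene, changed by -2.27 (SE 0.139, edgeR adjusted p = 1.15e-07) and Pbk, a mitotic kinase gene, by -2.20 (SE 0.156, adjusted p = 7.72e-07). Zw10, which acts at kinetochores and also in membrane traffic between cell divisions, was the 1 not called (-0.21, SE 0.0859, edgeR adjusted p = 0.11). Of 28 DNA replication genes, 27 were called lower with OSM and 0 higher, with a median of -0.91, and 12 lower with LIF (median -0.33). Pole, the catalytic subunit of DNA polymerase epsilon, changed by -1.999 and Mcm5, a subunit of the replicative helicase, by -1.88.

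The anaphase-promoting complex and cohesin also work outside mitosis. Of 15 subunits of the anaphase-promoting complex, the ligase that Cdc20 activates, 4 were called lower with OSM and 0 higher, with a median of -0.13, where 10.6% of all genes tested were called lower. Anapc15 had the largest of these changes (-0.35, SE 0.101, edgeR adjusted p = 0.026). Of 10 cohesin genes, 1 was called lower (Pds5a, -0.21, SE 0.0662, edgeR adjusted p = 0.0342) and 0 higher, with a median of -0.07, a share near that of all genes. Of 13 tested genes of quiescence and cycle exit, 4 were called lower and 1 higher (median -0.13), beside 10.6% and 10.8% of all genes. The 1 higher was Cdkn1b, the cyclin-dependent kinase inhibitor p27 (0.37, SE 0.0692, edgeR adjusted p = 0.00187). Cdkn1c, the related inhibitor p57, was lower (-0.73, SE 0.144, edgeR adjusted p = 0.00312), and Cdkn1a, the inhibitor p21, did not pass the test (0.06, SE 0.0663, adjusted p = 0.584).

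**Figure D3:**
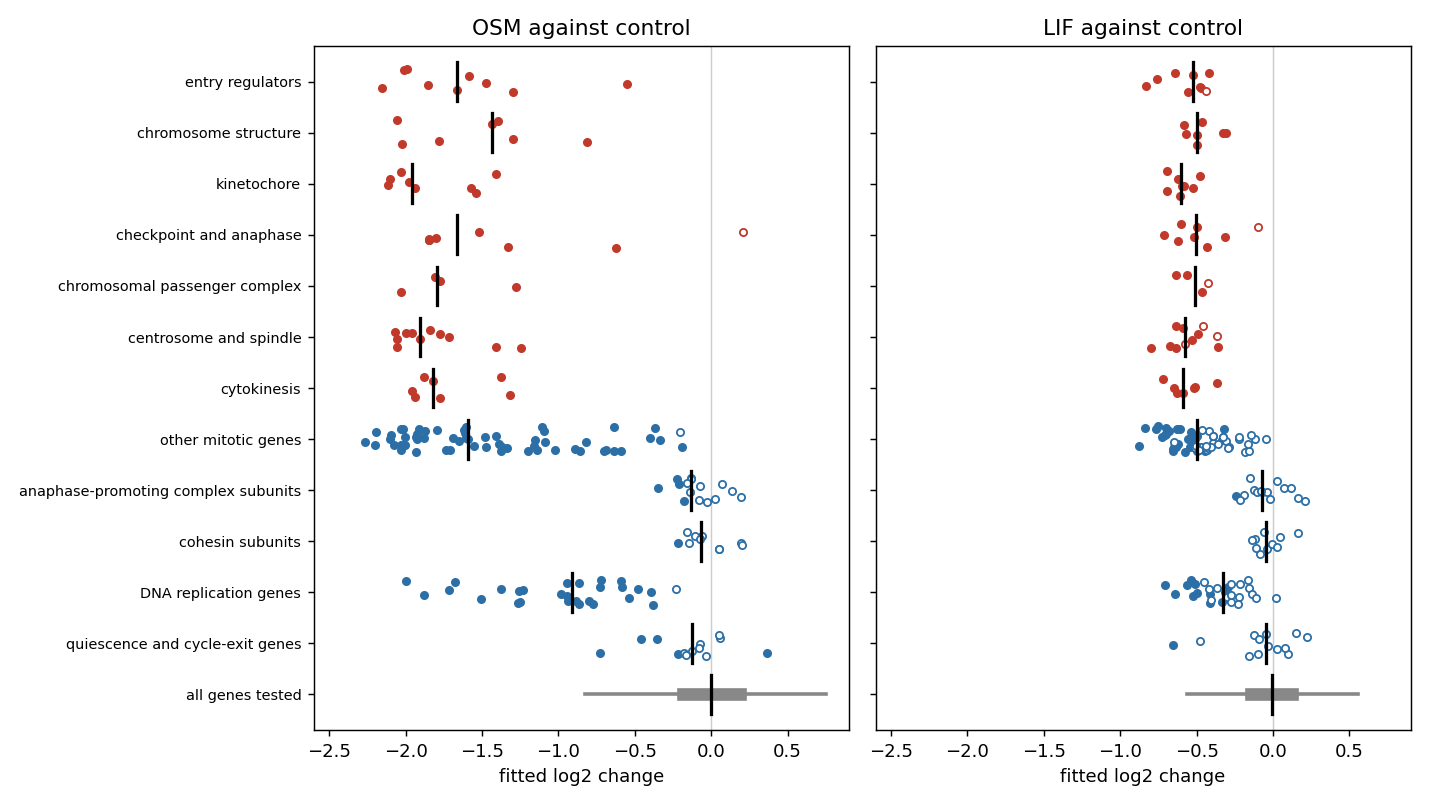
Fitted log2 change (horizontal axis) of each gene with OSM (left) and LIF (right) against control, for the 7 roles of the 54 genes (red) and 5 related lists (blue); filled points were called at adjusted p under 0.05, black bars are list medians, and for all genes tested the thick bar spans the middle 50% and the thin line the middle 90%. The roles have medians from -1.96 to -1.43 with OSM and from -0.60 to -0.50 with LIF, while the anaphase-promoting complex, cohesin and cycle-exit lists have medians of -0.13, -0.07 and -0.13 with OSM.

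The makeup of the cultures was read from marker genes. All 10 myotube markers were present, and Myh3, embryonic myosin heavy chain, was at 7888 and 7779 CPM in controls. Summed myotube markers were at 25083 and 24051 CPM in controls, 20820 and 23580 with IL6, 23367 and 22065 with LIF, and 21431 and 21261 with OSM. With OSM, 2 of the 10 were called lower, Myog (-0.53, edgeR adjusted p = 0.000696) and Myh8 (-0.20, adjusted p = 0.0447), and 1 higher, Des (0.30, adjusted p = 0.00411). Of all genes tested, 10.6% were called lower with OSM and 10.8% higher. Fitted changes were negative in 9 of the 10 myotube markers, with a median of -0.21. Both OSM libraries lay under both controls in 8 of them, where 31.0% of all genes lay lower in this way. Summed markers of undifferentiated myoblasts were highest with OSM, at 617 and 567 CPM in controls, 655 and 598 with IL6, 718 and 715 with LIF, and 854 and 812 with OSM. Of the 5 tested, 3 were called higher with OSM and 0 lower: Pax7 (0.39, edgeR adjusted p = 0.000852), Myf5 (0.82, adjusted p = 0.0316) and Sdc4 (0.72, adjusted p = 1.62e-06). Most of the rise in the sum came from Sdc4, which was at 320.4 and 313 CPM in controls and 531 and 513 with OSM. Myod1 (0.06, edgeR adjusted p = 0.761) and Cdh15 (0.19, adjusted p = 0.127) did not pass the test. Calcr, the other listed myoblast marker, had 0 counts in every library, which allows up to 3 counts in each.

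Summed fibroblast markers were at 1652 and 1717 CPM in controls, 1504 and 1704 with IL6, 2047 and 1984 with LIF, and 2059 and 2167 with OSM. Of the 5 tested, Col3a1 (0.49, edgeR adjusted p = 0.000373) and Pdgfra (0.53, adjusted p = 0.0193) were called higher with OSM and 0 lower. Of all genes tested, 10.8% were called higher and 10.6% lower. Dcn (0.17, edgeR adjusted p = 0.678) and Col1a2 (0.29, adjusted p = 0.661), both with few counts, did not pass the test. Lum had 0 counts in every library, Thy1 at most 1 and Dpt at most 3. Col3a1 made up most of the sum, at 1332 and 1534 CPM in controls and 1972 and 2064 with OSM. Col1a1 lay in the other direction, at 309 and 169 CPM in controls and 72.1 and 84.7 with OSM, a difference that did not pass the test (log2 -1.61, SE 0.468, edgeR adjusted p = 0.0858). Markers of macrophages summed to 2.68 to 5.44 CPM, of endothelial cells to 4.80 to 6.07 CPM and of Schwann cells to 1.72 to 2.96 CPM in a library. The defining macrophage gene Adgre1 had at most 1 count in a library, although Cd68 was called higher with OSM (1.03, edgeR adjusted p = 0.00186). The summed level of the 54 genes fell from 2793 and 3253 CPM in controls, 2663 and 2817 with IL6 and 2190 and 2039 with LIF to 952 and 1073 with OSM. In these bulk libraries, fewer dividing cells and less of these RNAs per cell cannot be told apart. The part that cell makeup had in the changes was not tested.

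**Figure D4:**
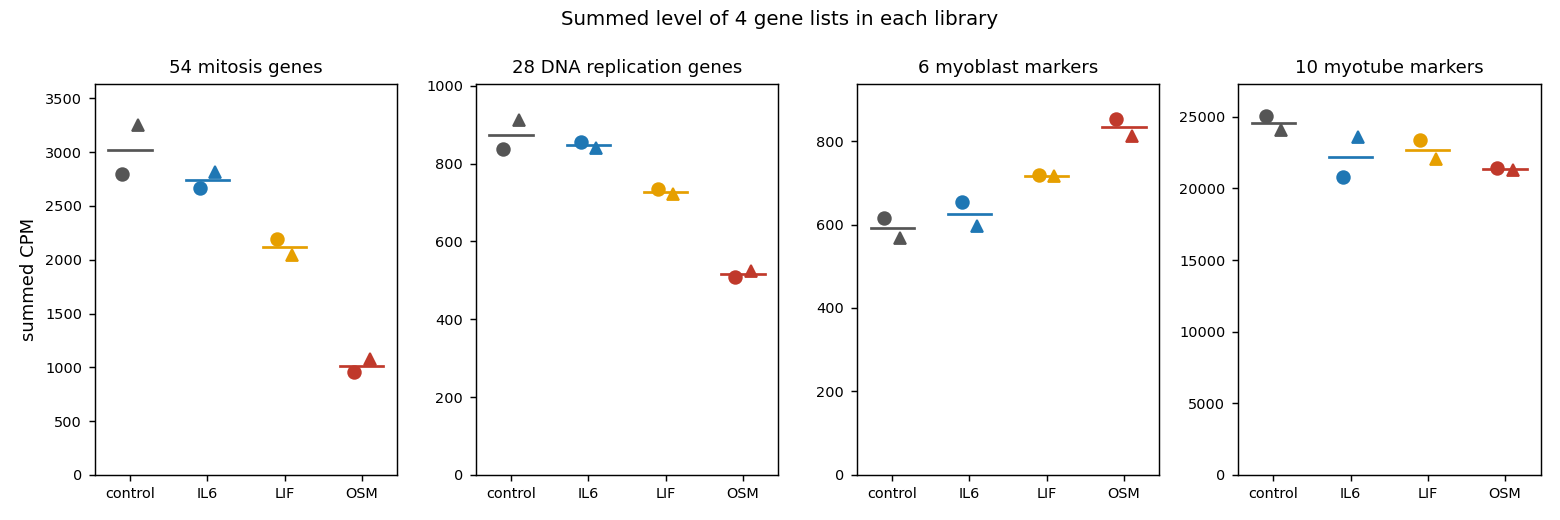
Summed CPM (vertical axes, from 0) of the 54 mitosis genes, 28 DNA replication genes, 6 myoblast markers and 10 myotube markers in each library; circles are replicate 1, triangles replicate 2 and lines means of 2. The mitosis genes lie lowest with OSM, at 952 and 1073 CPM, while the myoblast markers lie highest there, at 854 and 812 CPM. Most of the rise in the myoblast sum came from Sdc4, and Calcr had 0 counts in every library.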

How the data were processed

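RNA from 8 libraries of mouse primary myotubes, 2 per group, was analysed from the read counts per gene that the authors deposited, 1 file per library, without pooling. Per the labels' protocols, a stranded kit for poly(A) RNA was used. The submitters' processing notes name FastQC 0.11.9, MultiQC 1.12, Trim Galore 0.6.5, STAR 2.7.3a, HTSeq 0.11.1 and DESeq2 1.34.0, and the builds GRCm39 and mm39. The strand setting of the counting and the annotation release are not given in the sources used here, so overlap with genes on the opposite strand is stated where it exceeds 10% of exon length. Lines for reads not assigned to a gene, 11.7% to 12.7% of recorded alignments, were left out of library sizes and of all tests.

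Counts were tested with edgeR 4.0.16 in R 4.3.3: filterByExpr at a minimum count of 10 (15603 genes), TMM scaling, and a robust quasi-likelihood fit with 1 mean per group over all 8 libraries (4 residual degrees of freedom, common biological coefficient of variation 6.42%). The 6 contrasts were tested by quasi-likelihood F tests. Benjamini-Hochberg adjustment was made within each contrast, and genes with an adjusted p under 0.05 were called. CPM are TMM-scaled, and with 2 libraries per group the spread of a gene is borrowed from all 4 groups. Alternatives were RLE scaling, no filter, DESeq2 1.42.0, a replicate block, the 2 groups alone, and the omission of each library. Depth limits single genes with few counts, and limits from a count of 0 cover counting error only.

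The members and the related and marker lists were chosen with earlier results of these data known. Values in every library are given for the largest and smallest change with OSM in each role, for Mki67, Foxm1, Cdk1, Ccnb1, Aurkb and Birc5, and for members not called with OSM; other genes are given by counts, medians or single values, and some of these, such as Bub3 and the genes not called with LIF, were named after their values were seen. Shared 50-base stretches, exon overlap and exon length were computed from GENCODE M21 (GRCm38), and promoter sequences are from RefSeq (GRCm38.p6). These builds differ from the one named for the counts, so coordinates apply to the printed sequences only. The stretch of 1 further gene is not reported here.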

Additional observations from a re-analysis of the deposited data

How the results depend on the processing

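With OSM against control 53 genes were called lower and 0 higher under RLE scaling, no filter, DESeq2, the replicate block, the 2 groups alone and each of the 8 omissions, and the median log2 change was between -1.92 (without control replicate 1) and -1.67 (without control replicate 2). Against LIF the median lay between -1.31 and -1.12 over the omissions, and the count lower between 49 (without LIF replicate 1 or OSM replicate 1) and 52. Pttg1 passed the threshold as higher with OSM against LIF with no filter, with the 2 groups alone and without either IL6 library, so the count of higher genes was 1 there and 0 to 1 over the omissions. Against IL6 it passed with no filter and with the replicate block, giving a count of 1, and 0 to 1 over the omissions. The cause was not tested.

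The LIF counts were less steady. Calls over all genes were not counted with a library left out, so a lower count there may not be particular to these genes. Against control, the count lower ran from 10 (without LIF replicate 2) to 50 over the omissions. Against IL6 it was 19, but 43 with no filter and 41 with the replicate block, and 0 to 29 over the omissions; fewer libraries enter a fit with an omission, and otherwise the cause was not tested. Replicate numbers are shared between the groups, but deviations of same-numbered libraries correlated at only 0.01 to 0.18, so the numbers were not taken as pairs. Besides the counts above, the block called 4 more genes with LIF against control, and it changed no call for OSM or IL6 against control or for OSM against LIF.

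Some IL6 changes did not keep their sign. Their median ran from -0.26 (without control replicate 1) to -0.023 (without control replicate 2), and none of the 54 was called in any of these fits. Single genes turned positive in 18 cases without control replicate 2, in 5 without IL6 replicate 1 and in 2 without IL6 replicate 2. The lowest and highest log2 changes with IL6 over the 8 omissions were, for the genes concerned, Mybl2 -0.19 to 0.069, Smc2 -0.26 to 0.015, Smc4 -0.15 to 0.036, Ncapg -0.10 to 0.074, Nuf2 -0.22 to 0.11, Spc25 -0.27 to 0.11, Bub1 -0.16 to 0.032, Ttk -0.31 to 0.011, Pttg1 -0.24 to 0.035, Aurkb -0.25 to 0.16, Birc5 -0.14 to 0.021, Tpx2 -0.18 to 0.061, Plk4 -0.33 to 0.058, Hmmr -0.37 to 0.011, Kif15 -0.27 to 0.016, Kif18a -0.28 to 0.048, Kif20b -0.25 to 0.14, Kif23 -0.23 to 0.043, Prc1 -0.19 to 0.10, Anln -0.23 to 0.0027 and Ect2 -0.26 to 0.012.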
